A study of Homo sapiens with 4 samples.

Results

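The genes described here are 10 genes of the ATF4 stress response: the transcription factors ATF4, ATF5, DDIT3 and CEBPB, the stress effectors DDIT4, TRIB3, SESN2 and CHAC1, and the amino acid enzymes ASNS and PYCR1. They were taken by gene symbol from the 53777 Ensembl gene entries of an RNA sequencing table, and each symbol matched 1 entry. Expression was measured in 4 libraries of NUGC3, an established human stomach cancer cell line, 2 from cells with a MYC knockdown and 2 from wild-type cells. MYC is a transcription factor that drives growth and biosynthesis, and the question was how RNA levels differ when it is knocked down. The labels used here do not say how MYC was knocked down or whether the wild-type cells received a control construct. Values are FPKM, fragments scaled to transcript length and to the total of sequenced fragments, so levels can be compared between genes. The labels do not state that replicates are separate cultures, and the p-values therefore cover only the spread among these 4 libraries, which may be technical.

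When cells lack amino acids or accumulate unfolded protein, kinases phosphorylate the initiation factor eIF2. General translation then slows while the ATF4 mRNA is translated more, and ATF4, paired with C/EBP proteins, induces genes for amino acid synthesis, amino acid uptake and tRNA charging. DDIT3 and TRIB3 act further down the same response and hold it in check or turn it towards cell death, and DDIT4 and SESN2 restrain the growth kinase complex mTORC1. Because ATF4 is controlled at translation as well as transcription, the RNA levels reported here are not a measure of ATF4 protein.

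Short stretches of promoter sequence are shown because they hold the letters of the elements through which ATF4 and MYC are known to act. Promoter windows from RefSeq, on GRCh38.p14 and running from 250 bases before to 50 bases after a gene's start, were found for 9 of the 10 genes, all but PYCR1, in 17 windows. They were searched on both strands for TGATGNAA, the core of the C/EBP-ATF element bound by ATF4, for the E-box CACGTG bound by MYC with MAX, and for the endoplasmic reticulum stress element, CCAAT followed after 9 bases of any kind by CCACG. The last of these can share letters with CACGTG, but no window of the 9 genes held more than 1 of the motifs. The C/EBP-ATF core was found in 2 of the 9 genes, ASNS and CHAC1, and in 4.46% of all 27305 genes with a window (3.62% of 35116 windows). In ASNS it lay at −68 to −61 from the start, the position of the known nutrient-sensing element of that gene, and in CHAC1 it lay at −209 to −202 on the opposite strand. The E-box was found in ATF4 alone, at −82 to −77 from the start, against 8.77% of all genes (7.26% of windows). An exact match to the stress element was found in 0 of the 9 genes, against 0.0916% of all genes. The windows of DDIT3 hold CCAAT followed after 9 bases by CCACT, which is 1 letter off the pattern searched. Near matches and elements outside the windows were not searched for, so a gene without a match may still hold an element. Each stretch is 30 bases, written 5′ to 3′ on the gene's own strand, with the matched letters in capitals: ATF4 at chr22:39520465-39520494 (plus strand), ASNS at chr7:97872458-97872487 (minus strand) and CHAC1 at chr15:40953251-40953280 (plus strand).
ATF4: ggaggagacggtCACGTGgtcgcggcggaa
ASNS: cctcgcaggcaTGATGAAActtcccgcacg
CHAC1: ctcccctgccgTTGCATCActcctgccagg

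MYC itself had 65.0 and 75.8 FPKM in the knockdown libraries, against 82.9 and 82.0 FPKM in wild type. Both knockdown values were the lower ones, in the direction of the labels, but the mean was 85.4% of that in wild type and the difference did not pass (limma adjusted p = 0.237). Judged by steps in the low values, wild type replicate 1 was sequenced most deeply, and relative to it MYC knockdown replicates 1 and 2 had a depth of 73.0% and 76.5% and wild type replicate 2 of 79.9%. The epithelial markers EPCAM, CDH1, KRT8, KRT18 and KRT19 lay between 54.3 and 2488 FPKM in all 4 libraries, while of 9 markers of fibroblasts, leukocytes and endothelium that were matched, COL1A2, DCN, PTPRC and VWF were listed at 0 and LUM, CD3E, LYZ and CDH5 reached at most 0.21 FPKM. The remaining marker, the fibroblast collagen COL1A1, had 8.12 and 2.98 FPKM in the knockdown libraries, against 6.57 and 5.75 FPKM in wild type. The knockdown libraries differed more from each other than the wild-type libraries did, with a median SD of 0.142 against 0.0536 on the log2 scale. MYC knockdown replicate 1 stood apart by its interferon-stimulated genes, of which IFI6 stood at 375 and 11.6 FPKM in MYC knockdown replicates 1 and 2, against 11.1 and 10.2 FPKM in wild type.

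ATF4 and 4 of its known targets had clearly lower levels in the MYC knockdown libraries, while the other 5 genes lay closer to wild type. DDIT4, TRIB3 and PYCR1 stood at 45.7%, 46.1% and 45.7% of their wild-type mean, and ASNS and ATF4 at 62.2% and 65.3%. DDIT3, CHAC1 and SESN2 stood at 78.3%, 72.9% and 86.2%, while ATF5 and CEBPB stood at 104% and 117%. The groups did not overlap for 7 of the 10 genes, all lower in the knockdown libraries, and 0 were higher without overlap, where 25.2% of all 12953 genes tested were lower in this way and 33.4% higher. In bulk RNA, fewer cells that express a gene and less RNA per cell cannot be told apart. The median log2 change over the 10 genes was −0.49, against 0.04 over all genes tested.

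The test was limma on log2(FPKM + 1), fitted to all 12953 genes that reached 1 FPKM in 2 or more libraries, with Benjamini-Hochberg adjustment. All 10 genes passed that filter. At an adjusted p of 0.05, limma called 0 of the 10 genes and 0% of all genes tested. At an unadjusted p under 0.05 it held 6 of the 10 lower and 0 higher, beside 11.5% of all genes lower and 14.4% higher. At an adjusted p of 0.10 it called 5 of the 10, all lower, namely DDIT4, TRIB3, PYCR1, ATF4 and ASNS, beside 4.91% of all genes lower and 5.5% higher. With no filter on low values, where 24879 genes were tested, limma called 0 of the 10 and 0 of all genes at 0.10 (adjusted p = 0.145 for ATF4 and DDIT4). The limma adjusted p-values of 4 of the 10 (ATF4, DDIT4, TRIB3 and PYCR1) sat just above 0.05, at 0.0556 to 0.0566. These 4 passed 0.05 when fewer low genes were tested or libraries were scaled by median of ratios. ASNS stood at 0.0815, and the other 5 genes at 0.155 to 0.773. Leaving out 1 wild-type library, so that the spread came from the more variable knockdown pair, left 0 of the 10 at an adjusted p of 0.10. A pair of groups with 2 libraries each cannot give an exact permutation p below 0.333, so no such test is given.

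**Figure D1:**
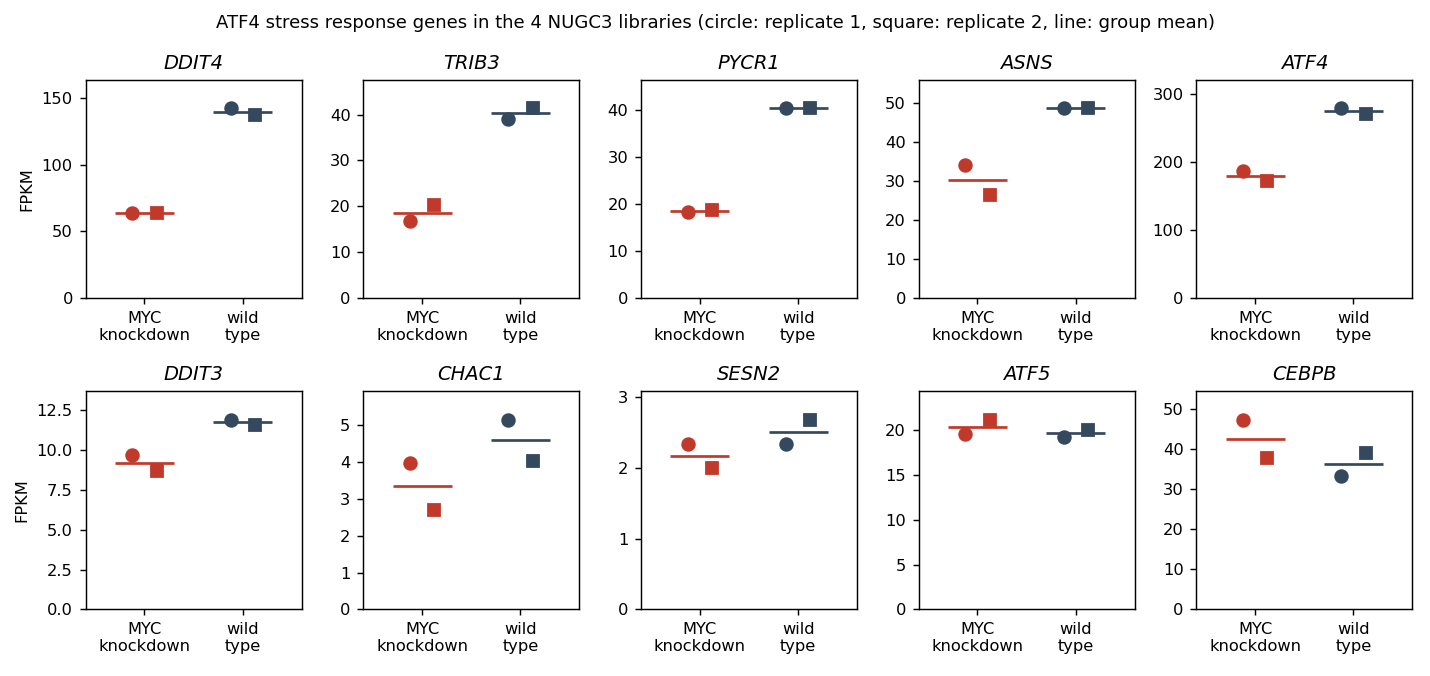
FPKM of the 10 genes in each library, 1 panel per gene, with MYC knockdown in red on the left and wild type in dark blue on the right; circles are replicate 1, squares replicate 2, and lines group means. DDIT4, TRIB3, PYCR1, ASNS and ATF4 show a clear gap between the groups, while the values of SESN2, ATF5 and CEBPB overlap.

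ATF4 (ENSG00000128272; in GENCODE release 29 on GRCh38 at chromosome 22, 39519695 to 39522685, plus strand), the central transcription factor, had 187 and 172 FPKM in the knockdown libraries, against 279 and 270.2 FPKM in wild type. Its groups did not overlap, and it was the most abundant of the 10 genes in all 4 libraries, at a mean over the libraries above that of 97.2% of all genes tested. Its log2 change of −0.61 ± 0.08 (SE) had a 95% interval of −0.82 to −0.41 (limma adjusted p = 0.0566). Of all genes tested, 3.78% had a lower log2 change.

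DDIT3 (ENSG00000175197; chromosome 12, 57516588 to 57521737, minus strand), the factor known as CHOP that promotes cell death under lasting stress, had 9.67 and 8.71 FPKM in the knockdown libraries, against 11.9 and 11.6 FPKM in wild type. The groups did not overlap, and the log2 change of −0.32 ± 0.11 (SE) had a 95% interval of −0.60 to −0.04 but did not pass after adjustment (limma adjusted p = 0.155). DDIT3 overlaps the tRNA synthetase gene MARS on the opposite strand in GENCODE release 29. MARS had 73.8 and 71.3 FPKM in the knockdown libraries and 88.5 and 88.8 FPKM in wild type, and since the strandedness of the libraries is not given, reads of the shared bases cannot be told apart.

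CEBPB (ENSG00000172216; chromosome 20, 50190734 to 50192689, plus strand), a C/EBP factor that can pair with ATF4, had 47.3 and 37.6 FPKM in the knockdown libraries, against 33.4 and 39.0 FPKM in wild type. The groups overlapped, and the higher mean came from MYC knockdown replicate 1 (log2 change 0.22, 95% interval −0.17 to 0.61, limma adjusted p = 0.404). ATF5 (ENSG00000169136; chromosome 19, 49928702 to 49933935, plus strand), a factor whose mRNA is translated under eIF2 phosphorylation as that of ATF4 is, had 19.6 and 21.2 FPKM in the knockdown libraries, against 19.3 and 20.0 FPKM in wild type. Its interval of −0.19 to 0.29 around a log2 change of 0.05 leaves out a difference of the size seen for ATF4. ATF5 shares bases on the opposite strand with NUP62, which had 38.8 and 40.3 FPKM in the knockdown libraries and 43.7 and 43.0 FPKM in wild type.

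DDIT4 (ENSG00000168209; chromosome 10, 72273920 to 72276036, plus strand), also called REDD1, which restrains mTORC1 through the TSC complex, had 63.7 and 64.2 FPKM in the knockdown libraries, against 143 and 137 FPKM in wild type. Both knockdown libraries were alike and far below both wild-type libraries, at 63.9 ± 0.297 against 140 ± 3.82 FPKM (SD, n = 2 per group). The log2 change of DDIT4, −1.12 ± 0.07 (SE), had a 95% interval of −1.30 to −0.93 (limma adjusted p = 0.0556, the smallest value reached, which 147 genes shared). Of all genes tested, 0.818% had a lower log2 change. The antisense gene that overlaps DDIT4 was listed at 0 FPKM in all 4 libraries.

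TRIB3 (ENSG00000101255; chromosome 20, 362835 to 397559, plus strand), a pseudokinase induced by ATF4 and DDIT3 that feeds back on both, had 16.8 and 20.3 FPKM in the knockdown libraries, against 39.1 and 41.4 FPKM in wild type. The groups were far apart, and MYC knockdown replicate 1 was the lower of its pair, the opposite of ATF4, where replicate 2 was the lower. The log2 change of TRIB3 was −1.08 ± 0.12 (SE; limma adjusted p = 0.0556).

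CHAC1 (ENSG00000128965; chromosome 15, 40952962 to 40956519, plus strand), which breaks down glutathione, had 3.99 and 2.71 FPKM in the knockdown libraries, against 5.16 and 4.03 FPKM in wild type. The highest knockdown value and the lowest wild-type value nearly touched, and the log2 change of −0.37 had an interval of −0.93 to 0.19 (limma adjusted p = 0.332). SESN2 (ENSG00000130766; chromosome 1, 28259527 to 28282491, plus strand), a leucine sensor upstream of mTORC1, was the lowest of the 10 genes, with 2.33 and 1.99 FPKM in the knockdown libraries against 2.33 and 2.68 FPKM in wild type. MYC knockdown replicate 1 and wild type replicate 1 had the same value, and the interval of −0.57 to 0.27 holds both a difference as large as that of DDIT3 and none (limma adjusted p = 0.599). On the log2(FPKM + 1) scale the change of such low genes is understated.

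ASNS (ENSG00000070669; chromosome 7, 97852118 to 97872542, minus strand), asparagine synthetase, had 34.1 and 26.6 FPKM in the knockdown libraries, against 48.7 and 48.8 FPKM in wild type. The wild-type pair was almost identical and the knockdown pair was not, so the log2 change of −0.68 had a wide interval of −1.04 to −0.32 (limma adjusted p = 0.0815). PYCR1 (ENSG00000183010; chromosome 17, 81932384 to 81942412, minus strand), which makes proline in mitochondria, had 18.3 and 18.7 FPKM in the knockdown libraries, against 40.4 and 40.5 FPKM in wild type. It was the most even of the 10 within wild type, and its log2 change was −1.09 ± 0.08 (SE; limma adjusted p = 0.0556). The antisense gene RP11-498C9.13 that overlaps PYCR1 had 1.63 and 5.47 FPKM in the knockdown libraries and 3.57 and 1.11 FPKM in wild type.

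**Figure D2:**
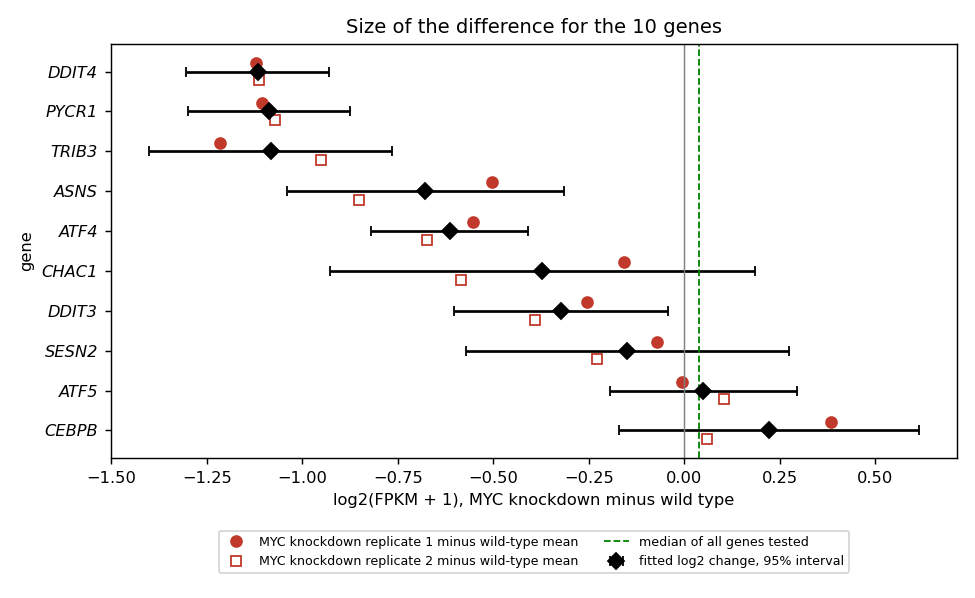
Log2 change of each gene on log2(FPKM + 1), MYC knockdown minus wild type, as black diamonds with 95% intervals, beside each knockdown library's own difference from the wild-type mean (filled circles for replicate 1, open squares for replicate 2). DDIT4, PYCR1 and TRIB3 lie near −1.1, ASNS and ATF4 near −0.6, and the intervals of CHAC1, SESN2, ATF5 and CEBPB reach across 0; the dashed line marks the median of all genes tested, 0.04.

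The 10 genes did not keep their levels relative to one another. On the log2(FPKM + 1) scale, the level of DDIT4 relative to ATF4 was −1.54 and −1.41 in the knockdown libraries, against −0.97 and −0.97 in wild type, without overlap between the groups. TRIB3 and PYCR1 were likewise lower relative to ATF4 in both knockdown libraries, at differences of −0.47 each, again without overlap. ASNS kept about the same level relative to ATF4, with groups that overlapped and a mean difference of −0.06. DDIT3, SESN2, ATF5 and CEBPB were higher relative to ATF4 in both knockdown libraries, by 0.29, 0.46, 0.66 and 0.84. CHAC1 overlapped between the groups, at a mean difference of 0.24. Only 3.78% of all genes tested had a lower log2 change than ATF4. A higher level relative to ATF4 is therefore shared by most genes and is not particular to these. These differences relative to ATF4 were not tested.

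The order of levels differed between the groups. In the knockdown libraries it ran ATF4, DDIT4, CEBPB, ASNS, ATF5, TRIB3, PYCR1, DDIT3, CHAC1 and SESN2, with means from 179 to 2.16 FPKM, and ATF5, TRIB3 and PYCR1 overlapped their neighbours. In wild type it ran ATF4, DDIT4, ASNS, PYCR1, TRIB3, CEBPB, ATF5, DDIT3, CHAC1 and SESN2, with means from 275 to 2.51 FPKM, and PYCR1 and TRIB3 alone overlapped. CEBPB thus held rank 3 in the knockdown libraries and rank 6 in wild type, with ASNS, PYCR1 and TRIB3 between those ranks.

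DDIT4, PYCR1 and ATF4 differed from wild type by a similar amount in both knockdown libraries, and TRIB3 and ASNS less evenly. From the wild-type mean, DDIT4 lay at −1.12 and −1.11 in MYC knockdown replicates 1 and 2, PYCR1 at −1.11 and −1.07, and ATF4 at −0.55 and −0.67. TRIB3 lay at −1.21 and −0.95 and ASNS at −0.50 and −0.85. The 2 knockdown libraries fell on opposite sides of the wild-type mean for 1 of the 10 genes, ATF5, and for 29.2% of all genes tested. The interferon-stimulated genes that set MYC knockdown replicate 1 apart had a median difference of 3.20 there and of 0.10 in MYC knockdown replicate 2 over 8 genes tested. Between these 2 libraries, ATF4 and ASNS lay further below wild type in replicate 2, TRIB3 lay further below it in replicate 1, and DDIT4 and PYCR1 lay about as far below it in both. The part of the interferon signal in these values was not tested.

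**Figure D3:**
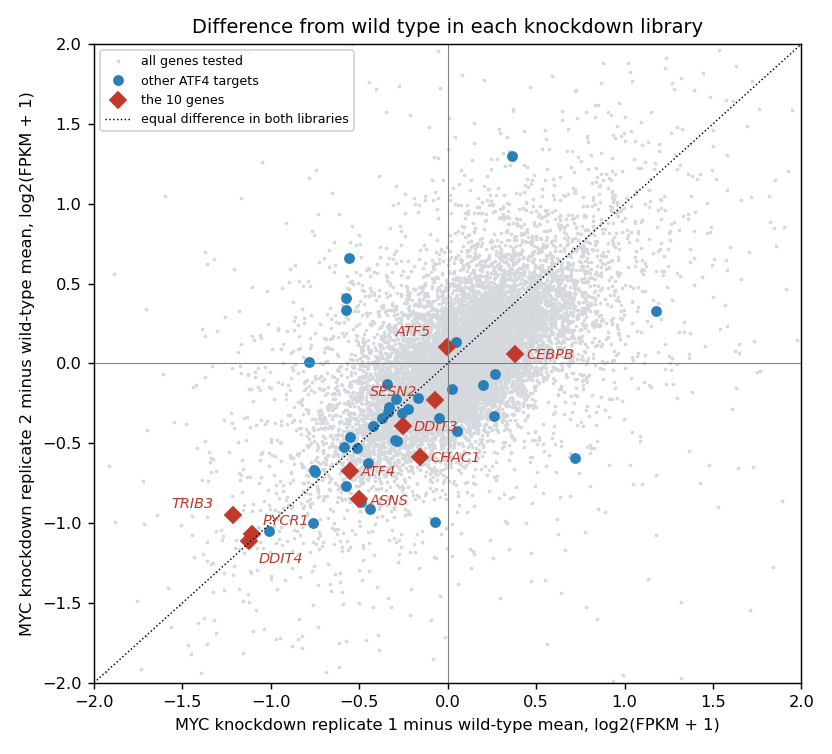
Difference from the wild-type mean on log2(FPKM + 1) in MYC knockdown replicate 1 (horizontal) and replicate 2 (vertical) for all genes tested in grey, other ATF4 targets in blue and the 10 genes in red. DDIT4 and PYCR1 lie on the dotted line of equal difference near −1.1, and CEBPB lies to the right of 0; 84 genes beyond 2 on either axis are not drawn.

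Among other known ATF4 targets, many had lower levels in the knockdown libraries, and kinds of target differed. Of 45 listed targets outside the 10 genes, 38 were tested, 25 of these (65.8%) were lower and 2 (5.26%) higher without overlap, beside 25.2% and 33.4% of all genes tested, and the median log2 change was −0.31. At an adjusted p of 0.05 limma called 0 of them (22 lower and 0 higher at an unadjusted p under 0.05, beside 11.5% and 14.4% of all genes), and at 0.10 it called 10, all lower, beside 4.91% of all genes.

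The enzymes and transporters of amino acids had a median log2 change of −0.41 over 15 genes tested, 11 (73.3%) lower and 1 (6.67%) higher without overlap, beside 25.2% and 33.4% of all genes. SLC1A5, the glutamine transporter, had 29.97 and 29.08 FPKM in the knockdown libraries, against 59.4 and 63.3 FPKM in wild type, and PSAT1 of serine synthesis had 48.3 and 40.8 FPKM against 82.0 and 82.9 FPKM. Their log2 changes were −1.03 and −0.88 (limma adjusted p = 0.0556 each). SLC7A11, the cystine transporter, was on the other side, with 17.4 and 34.1 FPKM in the knockdown libraries against 13.1 and 13.5 FPKM in wild type (log2 change 0.83, limma adjusted p = 0.197). SLC3A2, the chain it pairs with, overlapped between the groups at a log2 change of −0.07.

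The cytosolic tRNA synthetases induced by ATF4, which charge tRNAs with amino acids, were the most uniform of these 3 lists, with 11 of 12 (91.7%) lower without overlap and 0 higher, beside 25.2% and 33.4% of all genes, and a median of −0.37. YARS had 38.1 and 33.2 FPKM in the knockdown libraries, against 56.6 and 57.7 FPKM in wild type, and AARS had 45.9 and 48.1 FPKM against 70.7 and 68.1 FPKM (limma adjusted p = 0.0574 and 0.0569). The exception was WARS, which overlapped, with 50.2 and 39.5 FPKM in the knockdown libraries against 39.1 and 48.6 FPKM in wild type. Interferon is also known to induce WARS, and its part in these values was not tested.

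The regulators and secreted factors among the targets had a median of −0.08 over 11 genes tested. Of these, 3 (27.3%) were lower without overlap, near the 25.2% of all genes, and 1 (9.09%) was higher, beside 33.4% of all genes, and the knockdown libraries lay on opposite sides of the wild-type mean for 7 of the 11, against 29.2% of all genes tested. ATF3, a stress-induced repressor, had 35.4 and 19.1 FPKM in the knockdown libraries, against 14.8 and 15.4 FPKM in wild type (log2 change 0.75, limma adjusted p = 0.202). EIF4EBP1, a translation repressor that mTORC1 inactivates, had 63.7 and 110.9 FPKM in the knockdown libraries and 110.9 and 110 FPKM in wild type, so that only MYC knockdown replicate 1 was low. XPOT, which exports tRNAs from the nucleus, had 29.5 and 31.4 FPKM in the knockdown libraries, against 41.7 and 45.8 FPKM in wild type (log2 change −0.51, limma adjusted p = 0.0701). PPP1R15A, the subunit that directs the phosphatase to eIF2, overlapped between the groups at a log2 change of 0.10.

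In the machinery upstream of ATF4, more genes were lower than over all genes tested, by small amounts. Over 18 genes tested of the eIF2 kinases, eIF2, its exchange factor eIF2B and its phosphatase, the median log2 change was −0.09, and 8 (44.4%) were lower and 2 (11.1%) higher without overlap, beside 25.2% and 33.4% of all genes. limma called 0 at an adjusted p of 0.10 (4 lower and 0 higher at an unadjusted p under 0.05, beside 11.5% and 14.4% of all genes). The amino acid sensor EIF2AK4, or GCN2, had 49.0 and 50.8 FPKM in the knockdown libraries, against 56.6 and 59.5 FPKM in wild type, and the heme-regulated kinase EIF2AK1 had 58.4 and 51.7 FPKM against 62.1 and 63.6 FPKM. The endoplasmic reticulum kinase EIF2AK3, or PERK, overlapped, with 8.84 and 7.31 FPKM in the knockdown libraries and 8.39 and 8.18 FPKM in wild type. The kinase EIF2AK2, or PKR, which senses double-stranded RNA and is itself induced by interferon, had 37.4 and 20.8 FPKM in the knockdown libraries, against 21.6 and 22.1 FPKM in wild type. It was high in MYC knockdown replicate 1 alone, the library with the high interferon-stimulated genes, whose part in this value was not tested. EIF2S2, the beta subunit of eIF2, had the lowest log2 change of the list, −0.38 (limma adjusted p = 0.101).

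In the other branches of the unfolded protein response, run by ATF6 and XBP1, 11 of 18 genes tested (61.1%) were lower without overlap, beside 25.2% of all genes, and 6 (33.3%) were higher, close to the 33.4% of all genes. Their median was −0.24, which was −0.09 without MYC knockdown replicate 2. HSPA5, the main chaperone of the endoplasmic reticulum, had 187 and 177 FPKM in the knockdown libraries, against 263 and 259.7 FPKM in wild type, and MANF, a secreted stress protein, had 54.8 and 52.3 FPKM against 81.0 and 82.0 FPKM. DNAJB9, a co-chaperone induced by XBP1, was on the other side, with 9.82 and 9.73 FPKM in the knockdown libraries against 6.55 and 5.96 FPKM in wild type (log2 change 0.57, limma adjusted p = 0.0748). ATF6B was also higher, at a log2 change of 0.38 (limma adjusted p = 0.151).

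Genes of the mitochondrial unfolded protein response, which ATF5 is known to regulate, had a median of −0.36 over 10 genes tested, with 7 lower and 0 higher without overlap, beside 25.2% and 33.4% of all genes, and 5 lower at an adjusted p of 0.10 in limma, beside 4.91% of all genes. HSPD1, the chaperonin of the mitochondrial matrix, had 312 and 272 FPKM in the knockdown libraries, against 480.2 and 469 FPKM in wild type, and CLPX, the unfoldase of a matrix protease, had 17.7 and 20.3 FPKM against 26.7 and 31.7 FPKM. ATF5 itself overlapped between the groups, as given above. YME1L1 and SPG7, proteases of the inner membrane, overlapped between the groups at log2 changes of 0.02 and 0.15.

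**Figure D4:**
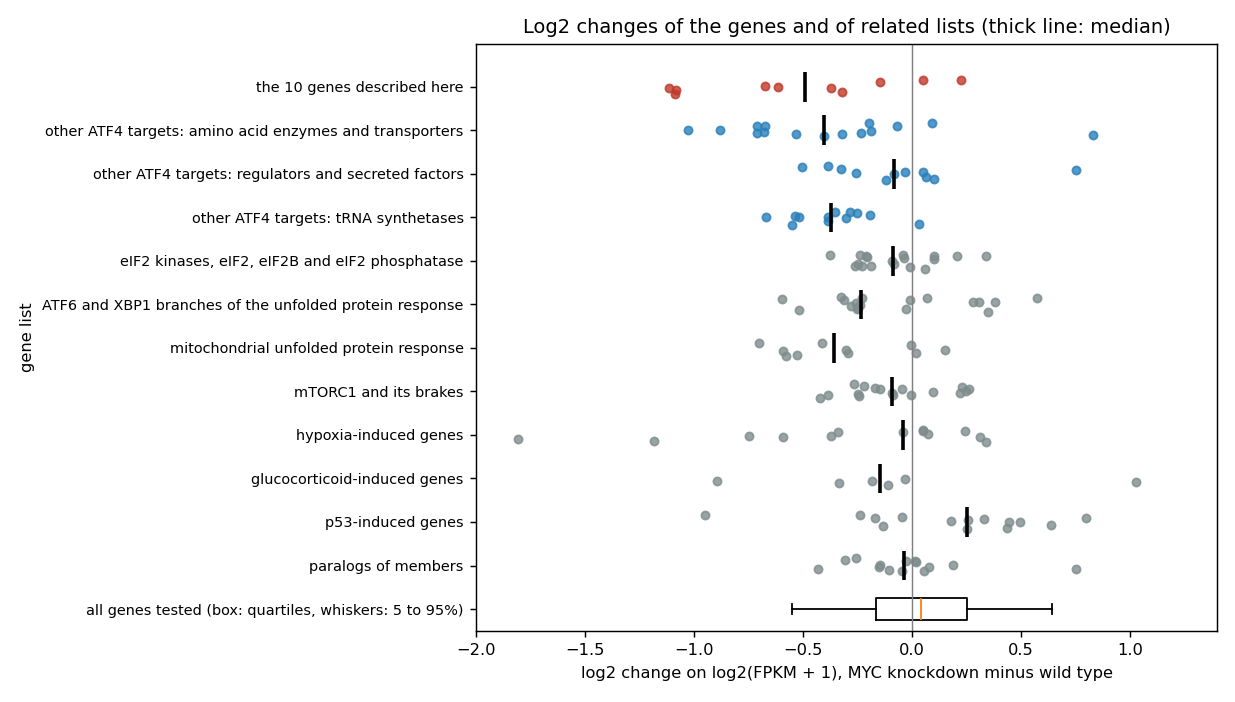
Log2 change, MYC knockdown minus wild type, of each gene tested in the 10 genes (red), the 3 lists of other ATF4 targets (blue) and related lists (grey), with list medians as thick lines and the box of all genes tested at the bottom. The 10 genes, the amino acid genes, the tRNA synthetases and the mitochondrial list have medians from −0.49 to −0.36, against 0.04 for all genes tested.

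DDIT4 and SESN2 act on mTORC1. Of the remaining genes listed with that complex and its brakes, 17 were tested, with a median of −0.09. The list also holds RHEB, EIF4EBP1 and RPS6KB1, which are neither subunits nor brakes, and EIF4EBP1 is counted among the other ATF4 targets too. Of these, 4 (23.5%) were lower and 4 (23.5%) higher without overlap, near and below the 25.2% and 33.4% of all genes. At an adjusted p of 0.10 limma called 0 of them, beside 4.91% of all genes lower and 5.5% higher. At an unadjusted p under 0.05 it held 1 lower and 0 higher, beside 11.5% and 14.4% of all genes. MLST8, a core subunit, had 16.3 and 19.1 FPKM in the knockdown libraries, against 24.2 and 23.9 FPKM in wild type (log2 change −0.42, limma adjusted p = 0.109). TSC1, a brake of mTORC1, had 16.1 and 14.4 FPKM in the knockdown libraries, against 13.4 and 11.8 FPKM in wild type (log2 change 0.26, limma adjusted p = 0.246), and the arginine sensor CASTOR1, listed as GATSL3, had 6.32 and 6.53 FPKM against 5.64 and 5.07 FPKM.

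Paralogs of the 10 genes mostly lay closer to wild type. PYCR3, a paralog of PYCR1 listed as PYCRL, lay at a log2 change of −0.11. TRIB2 had 13.5 and 18.4 FPKM in the knockdown libraries and 21.2 and 22.2 FPKM in wild type, at a log2 change of −0.43 (limma adjusted p = 0.193), and TRIB1 overlapped between the groups at 0.08. CHAC2 lay at −0.31 and SESN1 at −0.05, while SESN3 reached at most 0.47 FPKM and DDIT4L, the paralog of DDIT4, was listed at 0 in all 4 libraries. ATF3, also listed as a paralog, had the largest change of the list, 0.75. Over 14 paralogs tested the median was −0.04, close to that of all genes tested. Without overlap, 5 (35.7%) were lower and 2 (14.3%) higher, beside 25.2% and 33.4% of all genes. The difference between a gene and its paralog was not tested.

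Genes with a profile like that of DDIT4 were sought among 9585 other genes with a mean of at least 5 FPKM, by the distance between log2(FPKM + 1) profiles over the 4 libraries centred on each gene's mean. The nearest were the nucleoside transporter SLC29A1 at a distance of 0.0394, the sterol regulator SREBF2 at 0.0580, the amino acid transporter SLC38A5 at 0.0766, the sterol enzyme SQLE at 0.0913 and the noncoding RP11-248J18.2 at 0.0963. For ATF4 the nearest were RFX2, PAIP2, PRMT3, ADAT2 and HSP90AB1, at distances of 0.0309 to 0.0502. SLC29A1 had 17.6 and 17.8 FPKM in the knockdown libraries, against 41.6 and 38.7 FPKM in wild type. None of these genes overlapped between the groups, where 25.2% of all genes tested were lower without overlap. This follows from choosing them for nearness to DDIT4 and ATF4 and is not a separate result. With 4 libraries many genes share such a profile, so nearness is a description only.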

How the data were processed

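RNA of NUGC3 cells was sequenced in 4 libraries, 2 of MYC knockdown and 2 of wild-type cells, grouped by the sample titles. Cells were lysed in Trizol and Illumina libraries made from their RNA, per the labels' protocols. STAR and RSEM are the tools that the submitters' processing notes name, with versions, build, annotation and strandedness not given in the sources used here. FPKM is the unit of the values the authors deposited, as inferred from column sums, which differ between libraries (674328 to 739335). Both knockdown sums were the lower ones, at 708058 and 674328, against 739335 and 730732 in wild type. The main fit did not rescale the libraries. The table has 344810 rows, of which the 53777 Ensembl rows were used. For genes reaching 1 FPKM in 2 or more libraries, limma 3.58.1 (mean trend, R 4.3.3) was fitted to log2(FPKM + 1), which understates the change of low genes, and p-values were adjusted over all 12953 genes; log2 changes are knockdown minus wild type. The fit was also run on simulated data, and the outcome is not reported here. Promoter motifs, annotation and depth steps were read with Python 3.11.15. Read counts were not recovered: steps in the low values of short genes with 1 transcript gave relative depth only, and 65.2% to 69.7% of those values lay within 0.15 of a whole step, so no counting interval is given.

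The 10 genes and all lists were chosen with earlier results of these data known. Named in the text are the 10 genes, MYC, the eIF2 kinases, the paralogs of DDIT4, SESN2, TRIB3, CHAC1 and PYCR1, and from each list the 2 highest and 2 lowest log2 changes with a mean of at least 5 FPKM, of which a few are left out for space and 1 gene is not reported here; other genes were chosen after their values were seen. Groups that do not overlap have both values of one above both of the other. Alternatives were the pseudocount, the filter, the rows tested, 3 scalings, the mean trend, the replicate block, the threshold and each library left out. The difference between replicates 1 and 2 in the knockdown pair did not follow that in the wild-type pair over genes (correlation of −0.00587). With 1 such difference per group, this cannot show whether same-numbered libraries belong together, and the main fit did not pair them.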

Additional observations from a re-analysis of the deposited data

How the results depend on the processing

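The median log2 change of the 10 genes ranged from −0.65 (mean of at least 5 FPKM, 8 of the 10 genes) to −0.38 over 13 alternatives. In each it moved by less than the SD between the medians of the knockdown libraries. That yardstick could hardly be exceeded when a knockdown library was left out, since the fit then returns the other library's median. With no filter, the replicate block, protein-coding rows alone or no mean trend, the median cannot move. At an adjusted p of 0.05 the count of genes called was 0, but 310 with a mean of at least 5 FPKM, 293 with median-of-ratios scaling and 385 with protein-coding rows alone, and 4 of the 10 genes passed in each of these 3. At a threshold of 0.10 it was 1349 genes and 5 of the 10, but with no filter on low values 0 and 0, and with no mean trend 4 of the 10. Leaving out 1 library gave 0 to 3413 genes and 0 to 6 of the 10: without either wild-type library 0 of the 10, 6 without MYC knockdown replicate 1 and 5 without MYC knockdown replicate 2. In these last fits the close wild-type pair alone sets the spread, and the lone library is assumed to vary likewise. With the replicate block, 0 genes and 0 of the 10 passed 0.05; at 0.10 the block gave 372 lower and 351 higher genes and again 5 of the 10. With equal column sums, 26.1% of calls at 0.10 were lower, against 47.1%, the median of all genes was 0.12, and 5 of the 10 were still lower. The direction held for 9 of the 10 genes in every alternative that tested them, and ATF5 was at −0.01 without MYC knockdown replicate 2. For many alternatives this was fixed in advance. The filter, the rows tested, the replicate block and the mean trend cannot alter a gene's log2 change. Leaving out a knockdown library gives the other one's own difference from wild type. List medians near 0 changed sign: the eIF2 list (0.00182), hypoxia-induced genes (0.05) and paralogs (0.05) with equal column sums, and the mTORC1 list (0.03) without MYC knockdown replicate 2. Why the calls differ between alternatives was not tested. The lowest of the 10 genes, SESN2 and CHAC1, are limited by depth and by the pseudocount.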

Other observations

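DDIT4 is also known to be induced by hypoxia, glucocorticoids and p53, and lists of genes of these responses were measured beside it. Their part in the DDIT4 difference was not tested. Of 13 hypoxia-induced genes tested, 5 (38.5%) were lower and 2 (15.4%) higher without overlap, beside 25.2% and 33.4% of all genes, and limma called 4 lower and 0 higher at an adjusted p of 0.10, beside 4.91% and 5.5% of all genes. The 4 called had the largest log2 changes of the list in size. ADM had the highest, at 0.34, but overlapped between the groups. NDRG1, a stress-induced gene, had 6.25 and 13.2 FPKM in the knockdown libraries, against 34.9 and 34.03 FPKM in wild type. EGLN3, an oxygen-sensing hydroxylase, had 2.84 and 2.31 FPKM in the knockdown libraries, against 6.94 and 7.26 FPKM in wild type. PDK1, which restrains pyruvate oxidation, and LDHA, lactate dehydrogenase, had log2 changes of −0.75 and −0.59 (limma adjusted p = 0.0560 and 0.0566). The median of the list was −0.04, and 6 of its 13 genes overlapped between the groups. SLC2A1, a glucose transporter, was higher without overlap, with 101 and 106 FPKM in the knockdown libraries against 86.2 and 88.8 FPKM in wild type. VEGFA, which both ATF4 and hypoxia induce, had 69.95 FPKM in MYC knockdown replicate 1 and 164 FPKM in replicate 2, on either side of 104 and 102 FPKM in wild type.

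Of 6 glucocorticoid-induced genes tested, 5 had a log2 change below 0, beside 5795 of all 12953 genes, and the median was −0.15. Without overlap, 2 (33.3%) were lower and 1 (16.7%) higher, beside 25.2% and 33.4% of all genes. The knockdown libraries lay on opposite sides of the wild-type mean for 3 of the 6, against 29.2% of all genes. At an adjusted p of 0.10 limma called 2 lower and 0 higher, beside 4.91% and 5.5% of all genes. The 2 were FKBP5, a co-chaperone of the glucocorticoid receptor, with 1.86 and 2.09 FPKM in the knockdown libraries against 4.45 and 4.63 FPKM in wild type, and the kinase SGK1, with 217 and 222 FPKM against 281 and 274 FPKM. DUSP1, a phosphatase of MAP kinases, was higher without overlap, with 73.8 and 44.1 FPKM in the knockdown libraries against 28.2 and 26.8 FPKM in wild type.

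The p53-induced genes had a median of 0.25 over 14 genes tested, with 8 (57.1%) higher and 3 (21.4%) lower without overlap, where 33.4% of all genes tested were higher and 25.2% lower. TP53I3, a quinone oxidoreductase, had 8.25 and 9.34 FPKM in the knockdown libraries, against 5.15 and 4.16 FPKM in wild type (log2 change 0.80, limma adjusted p = 0.0712). CDKN1A, the cell cycle inhibitor p21, had 18 and 39.3 FPKM in the knockdown libraries, against 16.01 and 17.7 FPKM in wild type, so that replicate 2 was far higher than replicate 1. GADD45A, a growth arrest gene, was the lowest of the list, with 17.6 and 15.2 FPKM in the knockdown libraries against 34.2 and 30.9 FPKM in wild type, a log2 change of −0.95 (limma adjusted p = 0.0556). BAX and TIGAR, listed as C12orf5, were also lower without overlap, at −0.17 and −0.14.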
